A study of Mus musculus with 7 samples.

Results

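The genes described here are those of cholesterol synthesis and of SREBP2, the transcription factor that drives it, in mouse liver. They were the 27 rows of the count table whose symbol equals a name on a list of the pathway's genes, out of 24421 gene symbols. By role they were 4 regulators, 8 enzymes from acetoacetyl-CoA to the isoprenoid diphosphates, 11 enzymes from squalene synthesis to cholesterol, and 4 genes of sterol uptake, transport and esterification. All 27 were in the table and 26 passed the low-count filter. The 1 that did not was Npc1l1.

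Poly(A) RNA was sequenced in 7 liver libraries of C57BL/6 mice aged 36 weeks, each taken here as 1 mouse. The 3 controls carried Prkci flox/flox alleles, and the 4 knockouts carried the same alleles with AlbCre, a recombinase driven by the albumin promoter and so aimed at hepatocytes. The knockouts are called AlbCre-labelled in the text and knockout in the plots, for a reason given with Prkci below. Prkci encodes protein kinase C lambda/iota, an atypical protein kinase C of cell polarity. Every mouse in both groups had been given the liver carcinogen diethylnitrosamine (DEN) once, at 25 mg/kg into the peritoneum when 2 weeks old. Food with 60% fat followed for 32 weeks. There was no group without DEN, without the fat diet or without floxed alleles. The labels do not say whether a piece of liver held tumour. In bulk liver, fewer cells of a type and less RNA per cell cannot be told apart.

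Cholesterol is built in the hepatocyte from acetyl-CoA through mevalonate, farnesyl diphosphate, squalene and lanosterol. When the membrane of the endoplasmic reticulum holds enough sterol, the INSIG proteins keep SCAP and its cargo SREBP2 there. When sterol is short, SCAP takes SREBP2 to the Golgi, where proteases release its active part, and that part switches on nearly every enzyme of the route together with Insig1. A liver that receives cholesterol from the diet therefore runs the route at a low level, and transcripts of its enzymes are known to move as a block between the fed and fasted states and over the day.

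SREBP2 binds sterol regulatory elements next to CCAAT sites of NF-Y and GC boxes of Sp1, so promoters of 4 members are shown, each for a reason in these data. Hmgcs1 held the only match among the members to TCACNCCAC, the 1 pattern searched for the element. Insig1 encodes the feedback regulator, Cyp51 differed widely between mice of one group, and Hsd17b7 separated the groups. Each sequence is the 300 bases from 250 before to 50 after the gene start, 5′ to 3′ on the gene's own strand, from RefSeq on GRCm38.p6, the assembly named mm10 by others. Capitals mark CCAAT or its reverse complement ATTGG and, in Hmgcs1 only, the 1 match to the sterol regulatory element TCACNCCAC.
Hmgcs1 (chr13:119690101-119690400, plus strand): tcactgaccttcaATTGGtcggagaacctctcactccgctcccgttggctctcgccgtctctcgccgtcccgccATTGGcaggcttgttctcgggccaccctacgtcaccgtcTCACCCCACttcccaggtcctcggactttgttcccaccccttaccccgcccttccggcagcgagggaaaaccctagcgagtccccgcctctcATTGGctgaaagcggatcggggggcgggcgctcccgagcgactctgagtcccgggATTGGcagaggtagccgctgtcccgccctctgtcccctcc
Insig1 (chr5:28071162-28071461, plus strand): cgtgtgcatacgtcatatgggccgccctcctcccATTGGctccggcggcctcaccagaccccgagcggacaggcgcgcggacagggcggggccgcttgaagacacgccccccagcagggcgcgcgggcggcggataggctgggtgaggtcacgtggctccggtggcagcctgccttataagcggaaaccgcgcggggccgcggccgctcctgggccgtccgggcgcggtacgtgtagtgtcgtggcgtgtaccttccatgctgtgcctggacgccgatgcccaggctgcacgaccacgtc
Cyp51 (chr5:4104648-4104947, minus strand): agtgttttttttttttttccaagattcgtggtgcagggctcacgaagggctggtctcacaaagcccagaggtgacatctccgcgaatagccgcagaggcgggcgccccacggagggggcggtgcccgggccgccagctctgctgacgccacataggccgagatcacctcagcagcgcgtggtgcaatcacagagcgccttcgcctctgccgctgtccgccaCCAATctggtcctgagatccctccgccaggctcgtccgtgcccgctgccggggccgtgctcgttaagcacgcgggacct
Hsd17b7 (chr1:169969156-169969455, minus strand): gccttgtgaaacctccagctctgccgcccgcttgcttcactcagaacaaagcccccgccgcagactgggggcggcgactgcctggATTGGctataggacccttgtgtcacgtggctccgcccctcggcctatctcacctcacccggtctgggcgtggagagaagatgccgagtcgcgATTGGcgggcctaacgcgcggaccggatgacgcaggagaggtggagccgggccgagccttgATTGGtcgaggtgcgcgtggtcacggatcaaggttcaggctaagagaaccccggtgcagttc

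In Hmgcs1 the element begins 137 bases before the gene start and lies among 4 CCAAT matches. The other 3 promoters hold 1 (Insig1), 1 (Cyp51) and 3 (Hsd17b7) CCAAT matches. RefSeq promoters were matched for 22 of the 27 members, and a gene with several starts was counted once. The 22 include Npc1l1, which holds CCAAT but was not among the tested genes. CCAAT, on either strand, was in 20 of the 22, against 42.7% of the 10385 tested genes with a promoter. The GC box GGGCGG, on either strand, was in 19 of the 22, against 66.2%. The E-box CACGTG was in 5 against 11.6%, and TCACNCCAC, on either strand, in Hmgcs1 alone against 1.51%. Matches of different motifs may overlap, though none did in the Hmgcs1 promoter. These are matches of letters only, and other forms of the sterol regulatory element were not searched for. The members were not drawn at random from the tested genes.

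Depth ran from 23807580 to 49203615 reads in genes per library, so that 3 reads, the limit a count of 0 allows, were 0.0561 to 0.152 CPM (counts per 1000000 reads in genes, scaled with TMM factors), counting error only. Hepatocyte markers were high throughout, with Alb between 37357 and 82650 CPM. The 6 markers summed to 78474 to 107795 CPM in the controls and to 60032 to 74786 CPM in the AlbCre-labelled libraries. Of their log2 fold changes 2 were above 0 and 4 below, and 0 passed edgeR's test. Prkci itself was at 20.5 to 27.7 CPM in the controls and at 28.2 to 30.7 CPM in the AlbCre-labelled libraries. A count over the whole gene does not check the deletion, so each direction below rests on the labels. Controls 1 and 2 stood apart: the summed acute phase genes, 23 in all, were at 201243 and 197974 CPM there, at 46197 CPM in control 3 and at 46030 to 55724 CPM in the AlbCre-labelled libraries. Neutrophil markers moved the same way, with S100a8 at 98.2 and 21 CPM in controls 1 and 2 and at most 3.50 CPM elsewhere. The part of the hepatocyte, acute phase or neutrophil levels in the results below was not tested. For most members the level in each control is therefore given. Differences from each separate control are given for the members as a whole and for Scap, Hsd17b7 and Stard4.

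No member of the route differed between the genotypes past the threshold in the edgeR fit, and the mice within a genotype differed widely. With edgeR's quasi-likelihood test and a threshold of 0.05 on the Benjamini-Hochberg adjusted p, 0 of the 26 tested members passed, against 2.21% of the 13638 genes tested. At an unadjusted p under 0.05 there were 4 of 26 (15.4%), namely Insig2 on the higher side and Scap, Hsd17b7 and Stard4 on the lower, against 18.0% of all genes. DESeq2 passed 2, Hsd17b7 and Stard4 (7.68% of all genes there), and limma-voom passed 0 (1.00%). The log2 fold change was above 0 for 8 members and below 0 for 18, with a median of -0.17, beside -0.01 over all genes. That median depended on which control was used: it was 0.04 without control 2 and 0.23 with control 3 as the lone control.

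Set against each control separately, the mean log2 CPM of the AlbCre-labelled libraries lay above control 1 for 8 of the 26 members, above control 2 for 5 and above control 3 for 18. The median differences on the log2 CPM scale were -0.11, -0.43 and 0.14. Control 2 thus had high levels for most of the route and control 3 low ones, and the sign of the median was negative against controls 1 and 2 and positive against control 3.

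**Figure D1:**
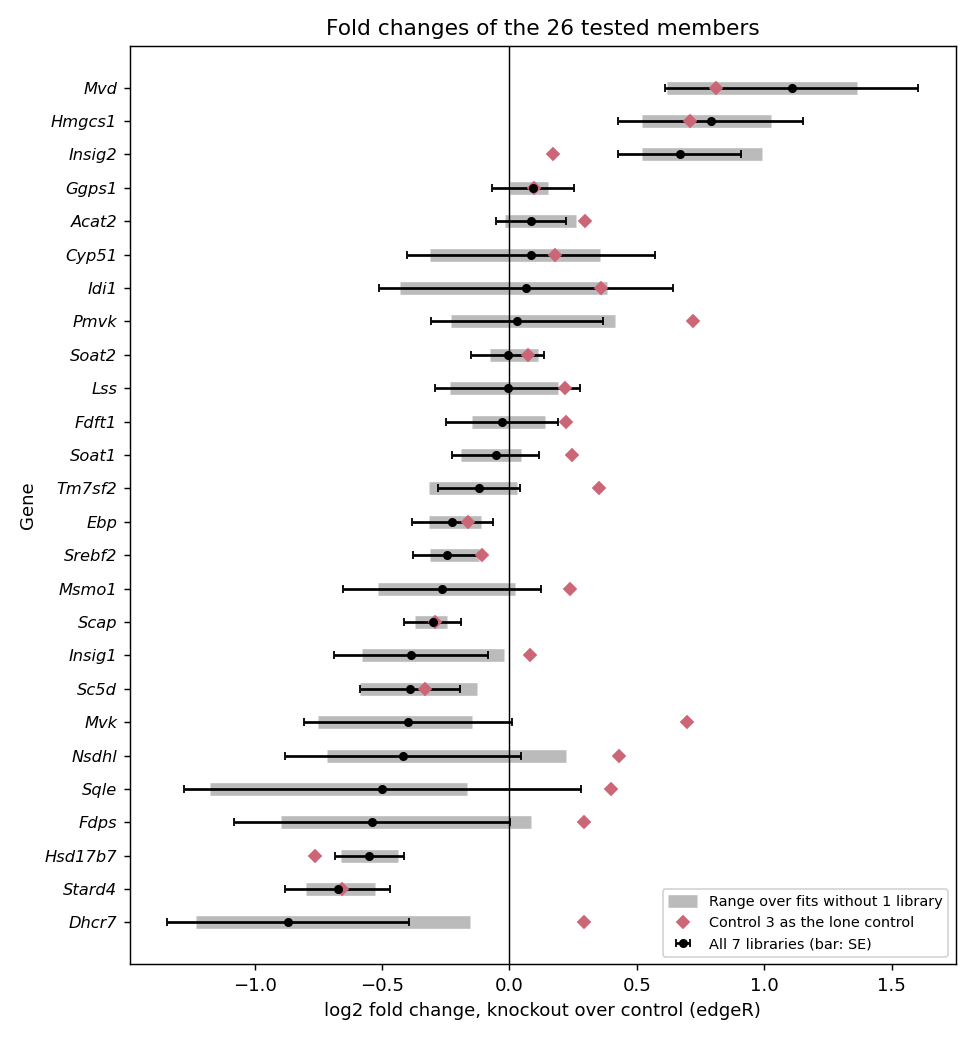
Log2 fold change of each tested member, AlbCre-labelled libraries over controls, from the edgeR fit. Black points are all 7 libraries with SE bars, grey bars the range over the 7 fits without 1 library, and red diamonds the fit with control 3 as the lone control. Mvd, Hmgcs1 and Insig2 lie highest and Dhcr7 lowest, and for Dhcr7, Mvk and Sqle the red diamond is on the other side of 0.

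The regulators come first. Srebf2, which encodes SREBP2 itself, was at 58, 46.2 and 45.4 CPM in controls 1 to 3 and at 42.5, 34.2, 45.0 and 46.8 CPM in the AlbCre-labelled libraries 1 to 4. The groups overlapped, and the log2 fold change of -0.24 (SE 0.13) did not pass edgeR's test (adjusted p = 0.380). Scap, the sterol sensor and escort of SREBP2, was at 127, 134 and 129 CPM in the controls and at 93.4, 113, 96.1 and 120 CPM in the AlbCre-labelled libraries. Every control lay above every AlbCre-labelled library, yet the log2 fold change of -0.30 (SE 0.11) did not pass edgeR's test (adjusted p = 0.195). Its difference was nearly the same against each control, at -0.28, -0.36 and -0.30 on the log2 CPM scale.

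Insig1 and Insig2 encode the retention proteins that hold SCAP back. Insig1, itself an SREBP2 target, was at 80.3, 140 and 69.8 CPM in the controls and at 77.0, 48.2, 97.3 and 72.9 CPM in the AlbCre-labelled libraries. The groups overlapped, and its log2 fold change of -0.39 (SE 0.30) did not pass (edgeR adjusted p = 0.563). Insig2, which is known in mouse liver for a transcript that insulin represses, was at 224, 218 and 391 CPM in controls 1 to 3. The other group had 450, 352, 397 and 565 CPM. Controls 1 and 2 were below all the others, while control 3 lay among the AlbCre-labelled libraries.

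Insig2 (ENSMUSG00000003721.14, minus strand of chromosome 1, 121304353 to 121332589, protein coding) changed by 0.67 on the log2 scale (SE 0.24), which did not pass over all libraries (edgeR adjusted p = 0.184). Without control 3 it passed, at 0.99 (edgeR adjusted p = 0.00858, 9.32% of all genes called there), while control 3 alone against the other group gave 0.17. Its adjusted p ran from 0.00858 to 0.830 over 16 alternatives. Insig2 thus set control 3 apart from controls 1 and 2, as the acute phase genes above did, and their part in it was not tested.

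Per kilobase of exon, Insig2 was the more abundant of the pair in each library. The ratio of Insig2 to Insig1 in CPM per kilobase was 2.49, 1.39 and 4.99 in controls 1 to 3 and 5.20, 6.51, 3.63 and 6.91 in the AlbCre-labelled libraries. The mean log2 ratio was 1.37 ± 0.92 (SD, n = 3) in the controls and 2.43 ± 0.42 (SD, n = 4) in the AlbCre-labelled libraries. The difference of 1.06 gave p = 0.114 in a two-sided exact permutation test (adjusted p = 0.229 over 2 ratios), where 35 splits allow no p below 0.0571. With control 3 as the lone control the difference was 0.11, and without control 2 it was 0.62.

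**Figure D2:**
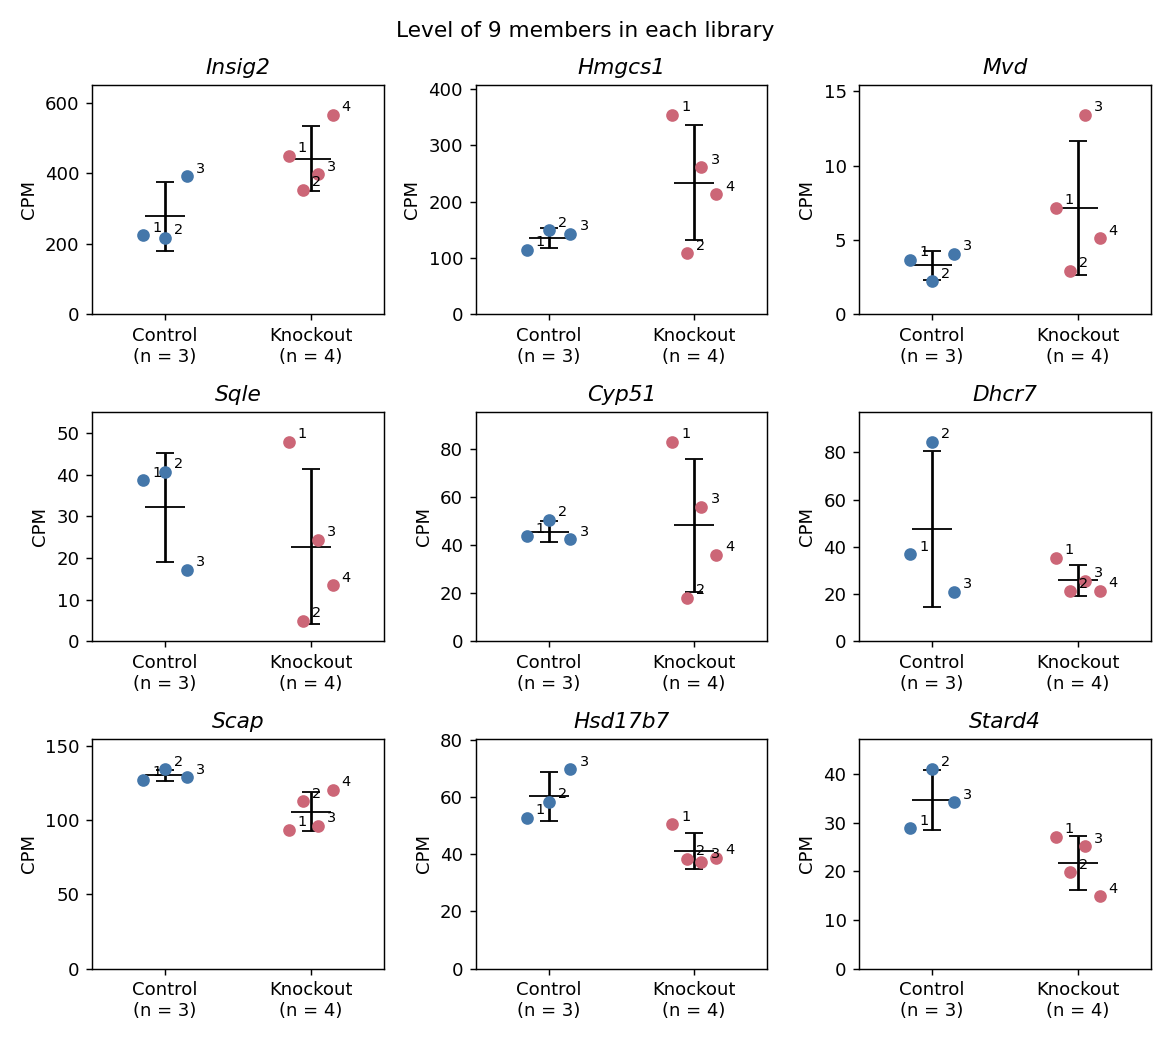
CPM of 9 members in each library, with the number of the mouse beside each point and the mean and SD as black bars (3 controls, 4 AlbCre-labelled libraries, axes from 0). The groups are separate for Scap, Hsd17b7 and Stard4 and overlap for the other 6, and mouse 2 of the AlbCre-labelled libraries is the lowest of its group for Insig2, Hmgcs1, Mvd, Sqle, Cyp51 and Dhcr7.

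The enzymes from acetoacetyl-CoA to the isoprenoid diphosphates had log2 fold changes above 0 for 6 of 8 and below 0 for 2, and none passed. Hmgcs1, the cytosolic HMG-CoA synthase (ENSMUSG00000093930.2, plus strand of chromosome 13, 119690379 to 119708260, protein coding), was at 114, 149 and 143 CPM in the controls. The other group had 354, 108, 260 and 213 CPM. Libraries labelled knockout 1, 3 and 4 were above every control and 2 was below them all. The log2 fold change over all libraries was 0.79 (SE 0.36, edgeR adjusted p = 0.316). Without AlbCre-labelled library 2 it was 1.03 (SE 0.20) and passed (edgeR adjusted p = 0.0270, 3.19% of all genes called there), and over 16 alternatives the adjusted p ran from 0.0270 to 0.752.

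Mvd, the mevalonate diphosphate decarboxylase, was at 3.65, 2.20 and 4.06 CPM in the controls and at 7.16, 2.93, 13.4 and 5.12 CPM in the AlbCre-labelled libraries. As with Hmgcs1, libraries 1, 3 and 4 of that group were above every control and library 2 was not. Its log2 fold change of 1.11 (SE 0.50) was the highest of the 26 members over all libraries and did not pass (edgeR adjusted p = 0.290). It was 0.62 without AlbCre-labelled library 3, below Hmgcs1 at 0.73 and Insig2 at 0.72 in that fit.

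Mvk, the mevalonate kinase, was at 13.8, 14.9 and 5.27 CPM in the controls and between 5.72 and 12.7 CPM in the AlbCre-labelled libraries. The phosphomevalonate kinase Pmvk was at 13.7, 21.8 and 9.19 CPM and between 9.39 and 20.9 CPM. In both, control 3 was the lowest library of all 7. The fold change of each depended on the control used: with control 3 as the lone control the log2 values were 0.69 for Mvk and 0.72 for Pmvk, against -0.40 (SE 0.41) and 0.03 (SE 0.34) over all libraries.

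Fdps, which makes farnesyl diphosphate, was at 28.3, 65.1 and 21.4 CPM in the controls and at 27.7, 12.8, 43.8 and 20.8 CPM in the AlbCre-labelled libraries. Idi1, the isopentenyl diphosphate isomerase, was at 4.20, 6.75 and 4.06 CPM and at 9.67, 1.33, 5.69 and 4.15 CPM. Both were lowest in AlbCre-labelled library 2, and within that group Idi1 differed 7.27-fold between the highest and the lowest mouse. Ggps1, which makes geranylgeranyl diphosphate for protein prenylation, kept between 6.84 and 9.24 CPM in all 7 libraries. Acat2, the cytosolic acetoacetyl-CoA thiolase, kept between 25.2 and 36.1 CPM, though its reads may be shared with its near copy Acat3, so its level is uncertain.

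The enzymes from squalene onwards had log2 fold changes below 0 for 10 of 11, with Cyp51 above 0 at 0.08 (SE 0.49), and none passed. Of the 10, Lss (-0.007) and Fdft1 (-0.03) were near 0. With control 3 as the lone control, Fdft1, Sqle, Lss, Cyp51, Tm7sf2, Msmo1, Nsdhl and Dhcr7 were above 0. Only Hsd17b7, Ebp and Sc5d stayed below 0 in that fit. Hsd17b7, the 3-ketosteroid reductase of the route (ENSMUSG00000026675.12, minus strand of chromosome 1, 169949535 to 169969241, protein coding), was at 52.9, 58.3 and 69.8 CPM in the controls. The other group had 50.5, 38.3, 37.3 and 38.8 CPM. Every control was above every AlbCre-labelled library, with AlbCre-labelled library 1 near control 1. The log2 fold change was -0.55 (SE 0.14, edgeR adjusted p = 0.0683), and it passed DESeq2 (adjusted p = 0.0183) but none of the other 15 alternatives. Against the separate controls the differences were -0.37, -0.51 and -0.77 on the log2 CPM scale.

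Of the 26 tested members, 3 had groups that did not overlap, Scap, Hsd17b7 and Stard4, all lower in the AlbCre-labelled libraries. That is 11.5%, against 16.3% of all genes tested (7.63% lower and 8.63% higher).

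Sqle, the squalene epoxidase and a flux-controlling step after mevalonate, had the widest range of all tested members (ENSMUSG00000022351.14, plus strand of chromosome 15, 59315077 to 59331192, protein coding). It was at 38.7, 40.8 and 17.2 CPM in the controls and at 47.8, 4.95, 24.4 and 13.4 CPM in the AlbCre-labelled libraries. The highest and the lowest library both carried the knockout label, and they differed 9.67-fold. The log2 fold change of -0.50 had an SE of 0.78 (edgeR adjusted p = 0.794), and the SE exceeded the size of the estimate. It was -1.17 without AlbCre-labelled library 1, -0.81 without control 3 and -0.17 without AlbCre-labelled library 2, and smaller in size than -0.50 by over 1.5 times without control 2 (-0.29) or AlbCre-labelled library 4 (-0.31).

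Cyp51, the lanosterol demethylase, was at 43.7, 50.5 and 42.5 CPM in the controls and at 82.8, 18.2, 55.9 and 36.1 CPM in the AlbCre-labelled libraries. The controls lay close together and inside the range of the other group, which differed 4.56-fold between its highest and lowest mouse. Msmo1, the methylsterol oxidase that acts later in the route, was at 62.8, 91.5 and 47.3 CPM and at 82.4, 29.7, 66.3 and 44.9 CPM. Among the AlbCre-labelled libraries, mice 1, 3, 4 and 2 came in that order from high to low for Sqle, Cyp51 and Msmo1 alike.

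Dhcr7, which makes cholesterol from its last precursor, was at 36.9, 84.4 and 21.1 CPM in the controls and at 35.3, 21.3, 25.7 and 21.5 CPM in the AlbCre-labelled libraries. Here the spread was among the controls, 4.00-fold, and its log2 difference of -0.87 (SE 0.47, edgeR adjusted p = 0.404) was the lowest of the members over all libraries. It was -0.16 without control 2 and 0.29 with control 3 as the lone control. Nsdhl, a decarboxylating sterol dehydrogenase, was likewise highest in control 2, at 44.2 CPM against 18.8 and 14.2 CPM in controls 1 and 3 and 12.5 to 29.6 CPM in the AlbCre-labelled libraries.

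Among the other sterol enzymes, Fdft1, the squalene synthase, ranged from 26.7 to 52.1 CPM and Lss, the lanosterol synthase, from 15.7 to 36.5 CPM, both from AlbCre-labelled library 2 to AlbCre-labelled library 1. The sterol reductase Tm7sf2 ranged from 30.6 to 50.9 CPM, the sterol isomerase Ebp from 91.3 to 161 CPM and the lathosterol oxidase Sc5d from 238 to 461 CPM, and control 2 held the highest value of each. Their adjusted p-values in edgeR ran from 0.333 (Sc5d) to 0.994 (Lss).

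Uptake, transport and esterification held the last of the separated genes. Stard4, a carrier that moves sterol between membranes and an SREBP2 target, was at 28.9, 41.0 and 34.1 CPM in the controls and at 27.1, 19.8, 25.1 and 14.9 CPM in the AlbCre-labelled libraries. All controls lay above all AlbCre-labelled libraries, by a small gap between control 1 and AlbCre-labelled library 1. The log2 fold change of -0.67 (SE 0.21) did not pass edgeR's test (adjusted p = 0.130) and passed DESeq2 (adjusted p = 0.0406), with adjusted p from 0.0406 to 0.477 over 16 alternatives. It was lower against each control, at -0.45, -0.95 and -0.69 on the log2 CPM scale.

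Soat1 and Soat2 encode the acyltransferases that turn cholesterol into its stored ester, Soat2 being the hepatocyte form and Soat1 the form of macrophages and many other cells. Soat2 was at 56.7, 44.1 and 46.2 CPM in the controls and at 55.6, 38.6, 46.5 and 54.2 CPM in the AlbCre-labelled libraries. Soat1 was at 11.7, 12.5 and 8.94 CPM and at 10.8, 12.6, 10.01 and 9.05 CPM. The groups overlapped fully in both, with log2 fold changes of -0.01 (SE 0.14) and -0.05 (SE 0.17). Summed over 7 macrophage markers the level was 501 to 795 CPM in the controls and 407 to 817 CPM in the AlbCre-labelled libraries, and none of the 7 was at 0. The 7 went both ways, with 4 log2 fold changes above 0 and 3 below, from -1.04 to 2.51, and 0 passed edgeR's test. Averaged over the 7, log2(CPM + 0.5) minus the control mean was 0.06 to 0.55 in the AlbCre-labelled libraries. That average was -0.03 to 0.03 in the controls, and its relation to Soat1 was not tested.

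In CPM per kilobase of exon, the ratio of Soat2 to Soat1 was 15.6 to 22.9 in the controls and 13.6 to 26.5 in the AlbCre-labelled libraries. The mean log2 ratio was 4.30 ± 0.29 (SD, n = 3) against 4.34 ± 0.41 (SD, n = 4), a difference of 0.04 (two-sided exact permutation p = 0.971, adjusted p = 0.971 over 2 ratios). Npc1l1, the sterol uptake channel that mouse liver is known to lack, had 0, 0 and 5 reads in the controls and 94, 5, 5 and 10 reads in the AlbCre-labelled libraries. The 94 reads, 1.76 CPM, came from AlbCre-labelled library 1, and the gene failed the low-count filter of the edgeR fit. Fitted without that filter it did not pass edgeR's test (adjusted p = 0.310, unadjusted 0.0412) nor DESeq2 (adjusted p = 0.157, unadjusted 0.0200), and no fold is given because controls 1 and 2 were at 0.

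Per kilobase of exon over all libraries, Insig2 was the most abundant member at 107 CPM per kb, followed by Sc5d at 61.4, Ebp at 55.6, Hmgcs1 at 41.7, Insig1 at 27 and Soat2 at 22.1 CPM per kb. The remaining enzymes of synthesis lay between 1.46 (Idi1) and 11.9 CPM per kb (Acat2), and Soat1 was at 1.10 CPM per kb. The lengths join all annotated exons of a gene, 9791 bases for Soat1 and 2213 for Soat2. Ranks and ratios between genes therefore depend on the annotation. Exons of 9 members overlap those of another annotated gene. On the same strand, Tm7sf2 overlaps Vps51 and Fdps a predicted gene. Scap, Hmgcs1, Cyp51, Idi1, Lss, Ggps1 and Fdft1 (with Ctsb) overlap a gene on the other strand. The counts of all 9 are less certain.

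What most members shared was a difference between mice inside each group. Of the 26, 14 had their lowest level in AlbCre-labelled library 2, 13 their highest in control 2 and 7 their highest in AlbCre-labelled library 1. These counts were not made over all tested genes, so they have no background here. Between the AlbCre-labelled libraries 1 and 2, 23 of 26 were higher in 1, with a median fold of 1.63, while the median log2 difference over all tested genes was 0.01. Between controls 2 and 3, 22 of 26 were higher in control 2, with a median fold of 1.39 beside a median log2 difference of 0.00 over all genes. Both pairs were chosen after their values were seen.

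**Figure D3:**
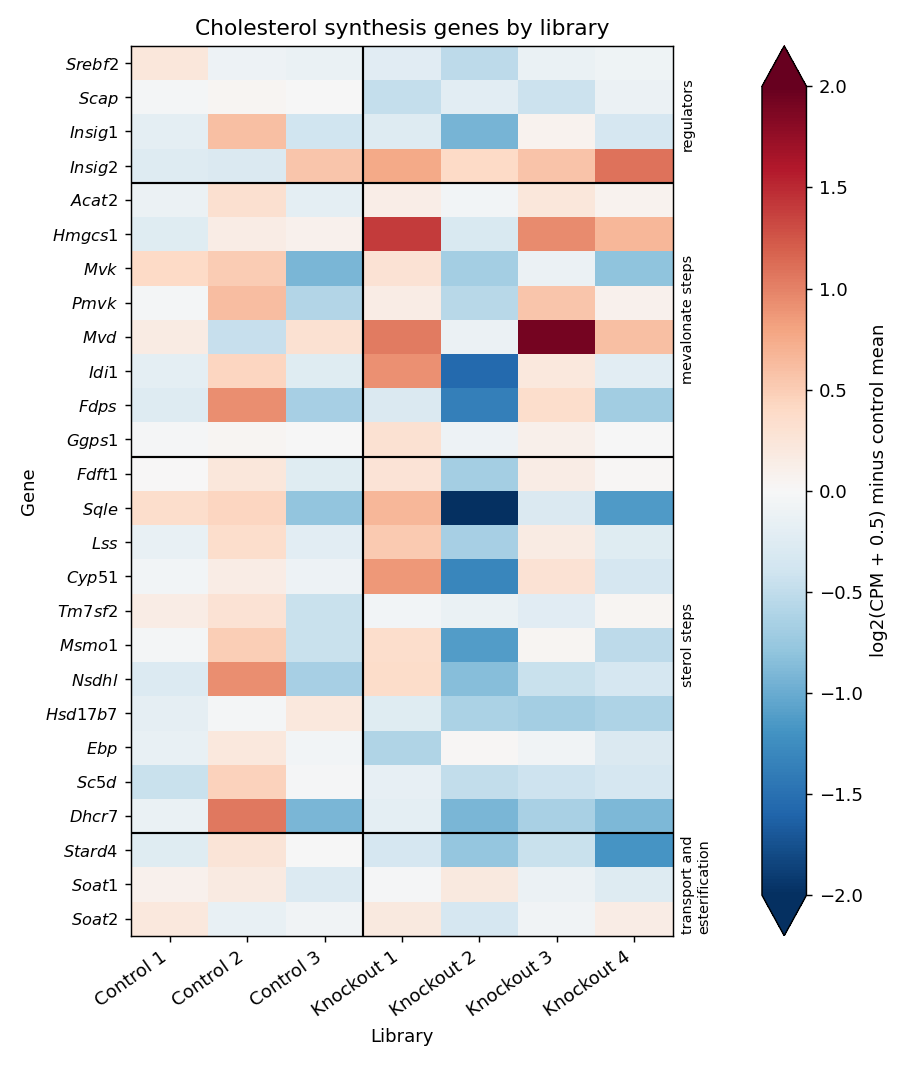
Each tested member (rows, by role) in each library (columns), as log2(CPM + 0.5) minus the control mean of that gene, red for higher and blue for lower, with colours ending at 2 in each direction. The columns of control 2 and of AlbCre-labelled library 2 stand out as mostly red and mostly blue, and Insig2 departs from the pattern.

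The spread between mice of a group, pooled over both groups on the log2(CPM + 0.5) scale, had a median SD of 0.41 over the members and 0.22 over all 13638 tested genes. It was above the median of all genes for 20 of 26 members and in the top 10% for 11. Sqle had the widest, 1.12, then Idi1 at 0.84, Fdps at 0.77 and Cyp51 at 0.72. Scap and Ggps1 had the narrowest, both at 0.14, and Srebf2 itself lay at 0.20. Genes of this comparison were not matched for level, and Idi1 and Mvd had among the lowest counts of the members.

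**Figure D4:**
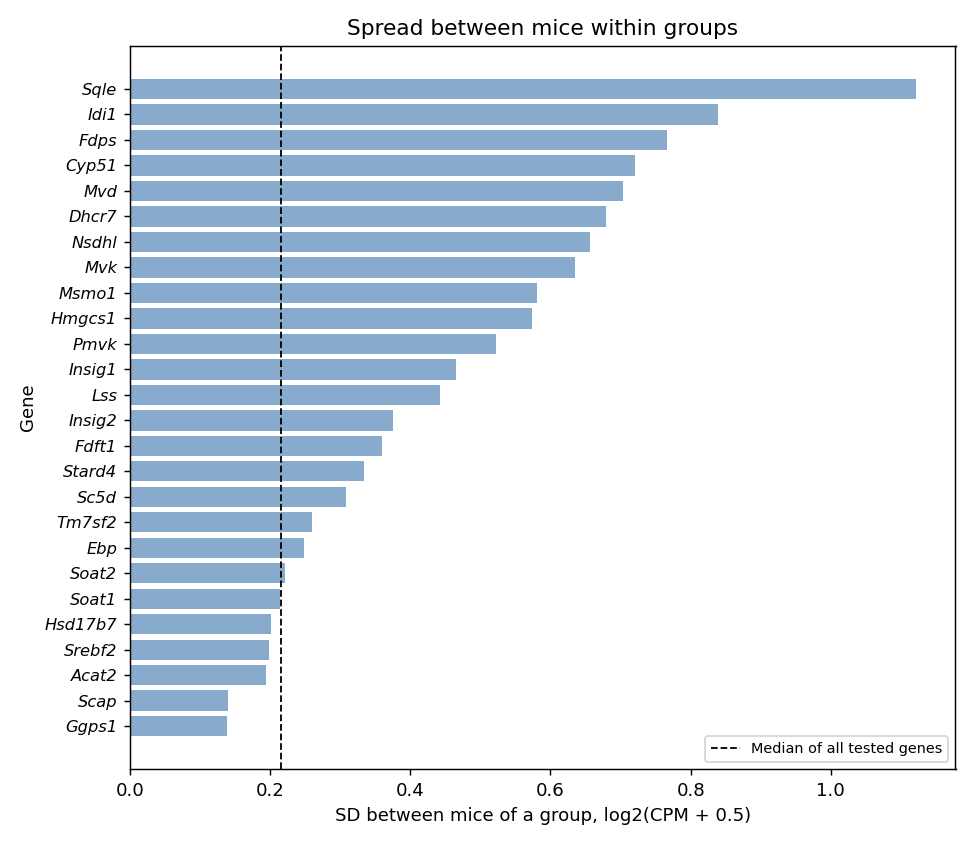
SD between mice of a group for each tested member, pooled over 3 controls and 4 AlbCre-labelled libraries on the log2(CPM + 0.5) scale. The dashed line is the median of all tested genes, 0.22, and Sqle reaches 1.12.

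Averaged over a list, the sterol enzymes were at -0.08, 0.42 and -0.33 in controls 1 to 3 and at 0.16, -0.84, -0.19 and -0.42 in the AlbCre-labelled libraries (mean log2(CPM + 0.5) minus the control mean). The 8 enzymes before squalene were at -0.04, 0.32 and -0.28 and at 0.49, -0.59, 0.52 and -0.04. Both lists placed control 2 above controls 1 and 3 and AlbCre-labelled library 2 below all others. In AlbCre-labelled library 3 the first list was below the control mean and the second above it.

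Other SREBP targets followed the same mice. The list of 8 genes was at -0.08, 0.35 and -0.27 in the controls and at 0.11, -0.42, -0.03 and -0.22 in the AlbCre-labelled libraries, and 0 passed edgeR's test, with 1 lower at an unadjusted p under 0.05 (8.67% of all genes were lower at that level). Acly, the ATP citrate lyase that supplies acetyl-CoA, had a log2 change of 0.0054 (SE 0.20).

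Genes of fatty acid synthesis, driven by the related factor SREBP1, did not have the low value of AlbCre-labelled library 2. That list of 8 was at -0.33, 0.70 and -0.36 in the controls and at 0.24, 0.24, 0.76 and 0.37 in the AlbCre-labelled libraries. Scd1, a desaturase and its most abundant member, was at 8178 CPM in AlbCre-labelled library 2, the highest of all 7, where Sqle was lowest. None of the 8 passed edgeR's test, and 1 was lower at an unadjusted p under 0.05, where 8.67% of all genes were, Srebf1 itself (log2 fold change -0.69, SE 0.22, edgeR adjusted p = 0.145).

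**Figure D5:**
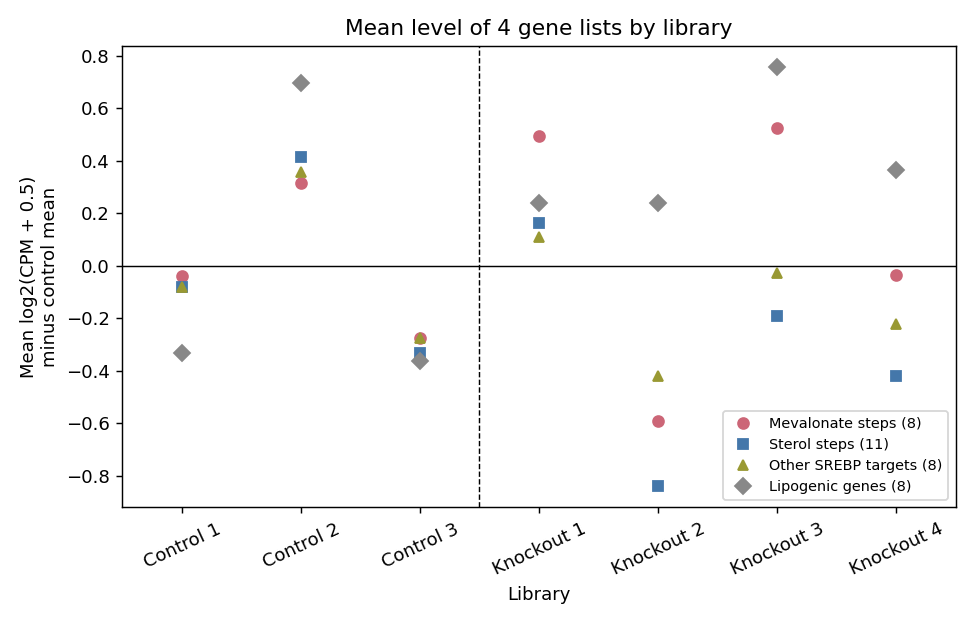
Mean log2(CPM + 0.5) minus the control mean for 4 gene lists in each library, the number of tested genes in brackets and 1 symbol per list. The mevalonate, sterol and other SREBP target lists are lowest in AlbCre-labelled library 2, at -0.59, -0.84 and -0.42, where the lipogenic list is at 0.24.

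Of the 4 tested genes on the list of remaining enzymes 0 passed, with 0 at an unadjusted p under 0.05. Among them Acat1, the mitochondrial thiolase, had a log2 fold change of 0.29 (SE 0.26).

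Further lists of the pathway gave no member past edgeR's test. At an unadjusted p under 0.05, 9.34% of all tested genes were higher and 8.67% lower, which is the background for the counts that follow. Of 10 genes that process or degrade SREBP and its partners, 1 was higher and 3 lower at that level. Their log2 fold changes were above 0 for 3 and below 0 for 7, from -0.69 to 0.52. Pgrmc1, a membrane protein that binds haem, was at 0.52 (SE 0.19). Of 22 genes of sterol handling, 2 were higher and 8 lower, and Lcat, which esterifies plasma cholesterol, and Cyp27a1, a sterol hydroxylase, were the most abundant (-0.34, SE 0.13, and -0.56, SE 0.17). Among 14 users of isoprenoids 1 was lower, with Zmpste24, a protease of prenylated proteins, at -0.17 and Nus1, a subunit of the dolichol synthase, at 0.13. Among the 4 electron donors 0 passed at that level, with Cyb5a, a cytochrome b5, at 0.28 and Por, the P450 reductase, at 0.03. Clock genes, 14 in all, had 1 higher and 2 lower, with 9 log2 fold changes above 0 and 5 below, from -0.69 to 1.35. Their list mean was 0.05, -0.14 and 0.09 in controls 1 to 3 and -0.12, 0.21, 0.08 and 0.13 in the AlbCre-labelled libraries. A mean over genes that go both ways cannot show the time of day, which was not tested.

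Markers of other cells differed between the mice named above. H19, an imprinted RNA of fetal liver and liver tumours, was at 219 CPM in AlbCre-labelled library 1, at 13.6 to 15 CPM in libraries 3 and 4 of that group, at 2.85 CPM in library 2 and at 1.47 to 5.41 CPM in the controls. The 4 tumour markers, H19 among them, summed to 244 CPM in AlbCre-labelled library 1, most of it from H19, and to at most 25.2 CPM elsewhere. Of their log2 fold changes 3 were above 0 and 1 below. Fibroblast markers, 5 in all, summed to 32.5 to 69.3 CPM in the controls and to 91.7 CPM in AlbCre-labelled library 2 against 146 to 202 CPM in the other AlbCre-labelled libraries. The sum was carried by Col3a1 and Col1a1, both collagens, with log2 fold changes of 2.13 (SE 0.43) and 2.61 (SE 0.55), while Lrat and Des, of stellate cells, were at -0.85 (SE 0.20) and -0.23 (SE 0.23), and none passed edgeR's test. The AlbCre-labelled library 1 had the highest Hmgcs1, Sqle and Cyp51 and the highest H19, and their relation was not tested.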

How the data were processed

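The authors deposited raw read counts for each gene symbol, 1 column per library. Which counter and annotation they used is not given in the sources used here. The submitters' processing notes name STAR, DESeq2 and mm10 without roles. Per the labels' protocols, directional poly(A) libraries were read from a single end; whether counting used strand is not given. The 2 rows that name no gene held 8.62% to 16.3% (no feature) and 0.433% to 0.575% (ambiguous) of reads and were left out.

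Counts were fitted with edgeR 4.0.16 in R 4.3.3: TMM factors, filterByExpr with a minimum count of 10, robust glmQLFit and glmQLFTest (two-sided), adjusted by Benjamini-Hochberg over 13638 genes, threshold 0.05. DESeq2 1.42.0 and limma-voom (limma 3.58.1) were alternatives. Gene ratios used exact permutation over libraries (scipy 1.17.1). Exon lengths and coordinates came from GENCODE M21 on GRCm38. Within each group no library was a copy of another: the smallest chi-square between a pair of the same group, per degree of freedom, was 38.8. Pairs across the groups were not compared in this way. Labels number the libraries of a group but do not state that each is 1 mouse; "mouse" here means library, and p-values measure the spread between libraries, which may be technical.

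Members, lists and alternatives were chosen with earlier results of these data known. All members are given; of other lists up to 2 of the most abundant genes are named where none passed, and some genes are not reported here. The fits were tested on simulated counts.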

Additional observations from a re-analysis of the deposited data

Results flagged for a closer look

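Among the 4 AlbCre-labelled libraries, 2 members had 1 mouse far from the other 3, and the same mouse both times. Hsd17b7 was at 50.5 CPM in library 1, where the next value was 38.8 CPM. Npc1l1 was at 1.76 CPM there, where the next value was 0.249 CPM. All 27 members were examined, and chance flags about 1 in 20. Groups of 3, such as the controls, were not examined.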

How the results depend on the processing

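The count of genes past the threshold, 302, was 1119 with DESeq2, 137 with limma-voom, 74 with the replicate number as a block, 9 with control 3 as the lone control and 31 to 1310 without 1 library (36, 31 and 1310 without controls 1, 2 and 3, and 55 to 77 without AlbCre-labelled library 1, 3 or 4). Members past it stayed at 0 except for 2 lower with DESeq2 and 0 to 1 higher without 1 library. Their median log2 fold change was 0.23 with control 3 as the lone control, a fit that gives the lone control the other group's spread. The cause of these shifts was not tested. The labels do not say whether equal numbers pair the mice, and the main fit did not pair them. Same-numbered libraries deviated with correlations of -0.05, 0.04 and -0.14, and 0 of 3 controls correlated best with their own number. Correlations of so few pairs cannot exclude a pairing. With the number as a block 0 members passed, and the median of the members was -0.16.

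Of 26 members, 10 kept their sign in all 16 alternatives, namely Srebf2, Scap, Insig2, Hmgcs1, Mvd, Ggps1, Hsd17b7, Ebp, Sc5d and Stard4. No sign change of the other 16 came with a call. With control 3 as the lone control, log2 fold changes that changed sign were Insig1 0.080, Mvk 0.69, Fdps 0.29, Fdft1 0.22, Sqle 0.40, Lss 0.22, Tm7sf2 0.35, Msmo1 0.24, Nsdhl 0.43, Dhcr7 0.29, Soat1 0.25 and Soat2 0.073. With the replicate block they were Idi1 -0.12, Lss 0.015, Cyp51 -0.022 and Soat1 0.020, and with limma-voom Idi1 -0.12 and Cyp51 -0.12. Ranges without 1 library that cross 0 were Pmvk -0.23 to 0.41, Idi1 -0.43 to 0.38, Soat2 -0.077 to 0.11, Fdps -0.90 to 0.083, Fdft1 -0.15 to 0.14, Lss -0.23 to 0.19, Tm7sf2 -0.32 to 0.030, Msmo1 -0.52 to 0.022, Nsdhl -0.72 to 0.22, Soat1 -0.19 to 0.044, Acat2 -0.019 to 0.26 and Cyp51 -0.31 to 0.36. The Soat2 to Soat1 difference was -0.18 with control 3 as the lone control and -0.13 to 0.23 without 1 library.

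Npc1l1, with 10 reads or fewer in 6 of 7 libraries, was too shallow to compare. For the other members the spread between mice limits what 3 against 4 can show.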
